A study of Homo sapiens with 55 samples.

Results

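Splicing was measured by RNA-seq in 293T cells that carried guide RNAs against SUGP1. The libraries were chosen by their column names: 4 sgSUGP1 libraries (guide 3 and guide 4, 2 replicates each) were set against 2 sgRenilla libraries, 6 of the 55 samples of the series. 293T is an established line derived from human embryonic kidney, and the labels call all of these cells WT, with no splicing factor mutation added. The 4 sgSUGP1 libraries carried a guide against SUGP1. As a second comparison, 4 sgGPATCH8 libraries (guide 16 and guide 17, 2 replicates each) carried a guide against GPATCH8, another gene with a G-patch domain. The sgRenilla control guide targets a luciferase gene that human cells lack. The labels name the sgRenilla libraries WT-1 and the targeted ones WT-1 and WT-2, while the columns carry guide numbers, and nothing ties a guide number to a WT name. Should these names stand for different cells, no control would exist for those called WT-2. The series also holds K562 cells, an established leukemia line, with and without mutant splicing factors.

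SUGP1 is a spliceosomal protein that binds SF3B1, the subunit of the U2 snRNP that helps to fix the branch point of an intron, the adenosine at which splicing begins. Through its G-patch domain SUGP1 activates an RNA helicase at this step. Cancer mutations of SF3B1, of which K700E is the most frequent in myelodysplastic syndromes, weaken the contact with SUGP1 and are known for the use of cryptic 3′ splice sites (acceptors) a short way upstream of the usual ones.

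The files give, per splicing event, how often its first-listed isoform was used, in percent of the isoforms of the event. At alternative acceptors this isoform used the upstream site, and in skipped-exon events it included the exon. Of 110816 events with coordinates, 49031 were tested, and an event was called at a limma adjusted p under 0.05 with a difference of at least 5 percentage points. The libraries gave a value for 77.6% to 78.4% of events, and the depth behind each value is unknown. The files hold no gene levels, so neither the loss of SUGP1 RNA nor that of its protein could be checked. Nothing in the labels says that replicates were separate cultures, so p-values measure the spread between replicates of a guide, which may be technical. In bulk RNA a partial usage in every cell and a full switch in a share of the cells cannot be told apart. Events of 17 genes that mark erythroid K562 cells had a value in 26.2% of cases in the sgSUGP1 and 24.6% in the sgRenilla 293T libraries, against 98.5% in K562. Events of 12 genes used as 293T markers had a value in 81.0% of cases with sgSUGP1, 90.5% with sgRenilla and 38.1% in K562.

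Some acceptor pairs that carry the result are shown first, since the distance between the sites and the bases between them are part of it. Each line is the sense strand, 5′ to 3′, read from GENCODE 29 transcripts (build GRCh38). It ends up to 6 bases past the downstream site, and capitals mark the AG that ends the intron at the downstream site and, where a transcript holds the bases before it, at the upstream site.
TMEM14C, 14 nt apart: tctgatccAGcttgttttctgcAGgtgcag
DYNLL1, 14 nt apart: cttaccccAGgccttgcccactAGgtaacc
ZNF410, 21 nt apart: cAGtgttgtcttttctccccccAGctcctg
ZNF771, 13 nt apart: ctccccgcctcAGgacacc
TCEA2, 12 nt apart: ccctgttcacAGgtgcag
E2F7, 18 nt apart: tgtaattgtgcattacAGatggag
MIPOL1, 30 nt apart: tttatttatctagagttggctttattttAG
ENOX2, 6 nt apart, used less: ccttAGtatcac
In TMEM14C, DYNLL1 and ZNF410 the upstream AG stands before the bases that separate the sites. In the stretch between the sites C and T made up, without the closing AG, 56.2% of bases in E2F7, 67.9% in MIPOL1, 75% in DYNLL1, 83.3% in TMEM14C, 89.5% in ZNF410 and 90.9% in ZNF771.

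With sgSUGP1, 21 of the 49031 tested events were called (0.0428%): 18 were higher (0.0367%) and 3 lower (0.00612%) than with sgRenilla. They were 17 alternative acceptors and 4 skipped exons, in 19 named genes and 1 exon without a name. All 4 sgSUGP1 libraries lay beyond all 6 other 293T libraries in all 21. Adjusted p-values were 0.014 to 0.045, and 3607 events had an unadjusted p under 0.05, where 2452 would be expected with no change in any event. With any of the 6 sgSUGP1 and sgRenilla libraries left out singly limma called 0 events, and the 21 then had adjusted p-values of 0.10 to 0.35. The fit without the sgGPATCH8 libraries, which help to estimate the spread, also called 0, with a lowest adjusted p of 0.16.

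**Figure D1:**
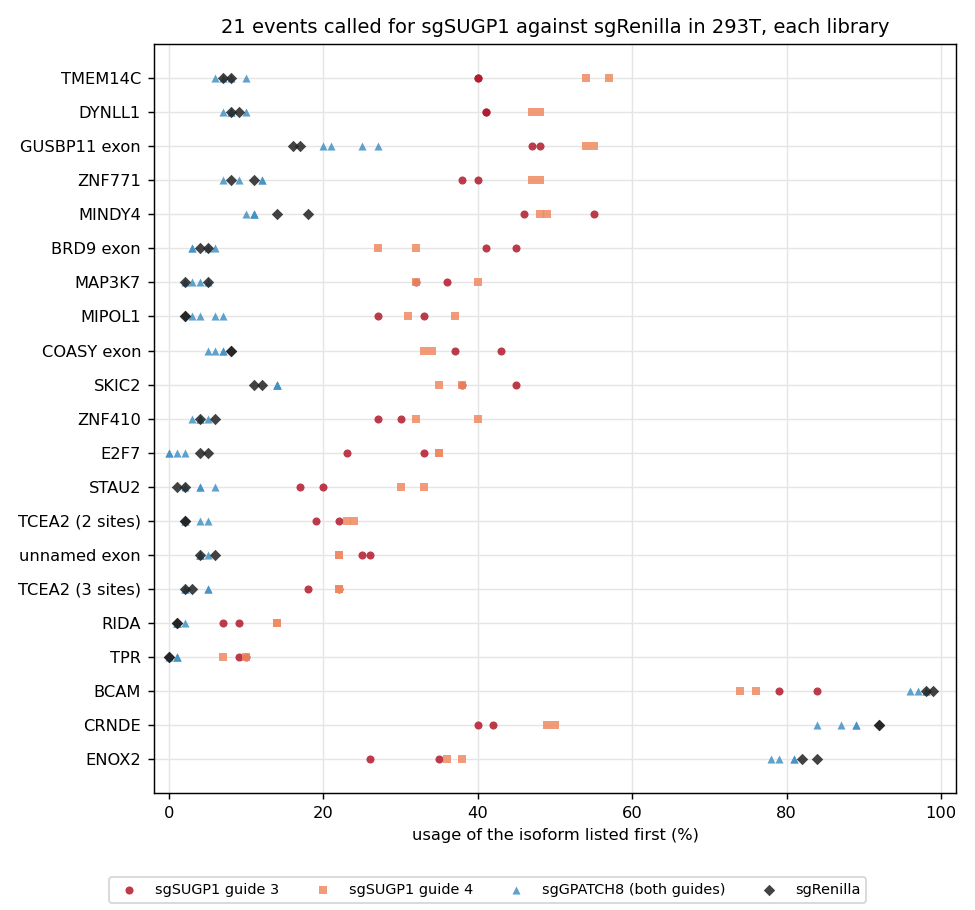
Usage of the isoform listed first (percent, horizontal axis) in each 293T library for the 21 called events (rows), with sgSUGP1 guides 3 and 4, sgGPATCH8 and sgRenilla as separate symbols. The sgSUGP1 libraries lie right of all others in 18 rows and left of them in BCAM, CRNDE and ENOX2.

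The largest rise among the called events was in TMEM14C, whose protein carries a heme precursor across the inner mitochondrial membrane. The upstream acceptor (chromosome 6, junction 10723474 to 10724789, build hg19, as all positions below) was used in 40% and 40% of transcripts with guide 3 and 54% and 57% with guide 4, against 7% and 8% with sgRenilla. The guides kept apart from each other here, and the sgGPATCH8 libraries, at 6% to 10%, lay around the sgRenilla pair. The mean was 47.8% ± 9.0 (SD, n = 4) with sgSUGP1 and 7.5% ± 0.71 (n = 2) with sgRenilla, a log2 change of used over not used of 3.33 ± 0.25 (SE, limma adjusted p 0.023).

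DYNLL1 encodes the LC8 light chain of dynein. Its upstream acceptor (chromosome 12, 120934019 to 120934205) was used in 41%, 41%, 47% and 48% of transcripts with sgSUGP1, against 8% and 9% with sgRenilla. All 4 libraries were close together and far from the controls (log2 change 2.96 ± 0.20 SE, limma adjusted p 0.014). In ZNF771, a zinc finger gene on chromosome 16, usage was 40%, 38%, 47% and 48% with sgSUGP1, against 8% and 11% with sgRenilla. MINDY4, of a family of deubiquitinases, was the event with the highest sgRenilla values among the rising acceptors: 55%, 46%, 48% and 49% with sgSUGP1, against 14% and 18%. Its sites lie 14 nt apart on chromosome 7 (junction 30811172 to 30818034). Both genes rose by about as much, 33.8 points in ZNF771 (limma adjusted p 0.024) and 33.5 points in MINDY4 (limma adjusted p 0.045).

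MAP3K7 encodes TAK1, a kinase that passes signals from cytokine receptors to NF-kappaB. A site 20 nt upstream (chromosome 6, 91269953 to 91271341, minus strand) was used in 32%, 36%, 32% and 40% of transcripts with sgSUGP1, against 5% and 2% with sgRenilla. The rise was 31.5 points (log2 change 3.64 ± 0.35 SE, limma adjusted p 0.043), and the guide means were 34% for guide 3 and 36% for guide 4. ZNF410, a zinc finger activator of CHD4, used its upstream site in 27%, 30%, 32% and 40% with sgSUGP1, against 6% and 4% with sgRenilla. The RNA helicase gene SKIC2 (also SKIV2L), of the SKI complex that feeds RNA to the cytoplasmic exosome, differed in spacing: its sites lie 63 nt apart. It used the upstream one in 38%, 45%, 38% and 35% with sgSUGP1, against 11% and 12% with sgRenilla (limma adjusted p 0.040).

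In the other rising acceptors, as in MAP3K7 and ZNF410, the upstream site was little used in control cells. MIPOL1 had 27%, 33%, 37% and 31% with sgSUGP1, against 2% and 2% with sgRenilla, at sites 30 nt apart, the widest spacing among the rising pairs other than SKIC2. E2F7, a repressor of cell cycle genes, had 23%, 33%, 35% and 35% with sgSUGP1, against 0% to 2% with sgGPATCH8 and 5% and 4% with sgRenilla. STAU2, which encodes a protein that binds double-stranded RNA, had 20% and 17% with guide 3 and 33% and 30% with guide 4, against 2% and 1%. The groups did not overlap in any of the 3, and MIPOL1 rose by 30 points, E2F7 by 27.0 and STAU2 by 23.5 (limma adjusted p 0.031, 0.043 and 0.045).

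TCEA2, a transcription elongation factor of the TFIIS family, gave 2 of the 21 calls at the same junction (chromosome 20, 62701988 to 62703211), once as a pair of sites and once in an event with 3 sites, so these are not separate observations. The pair had 22%, 19%, 23% and 24% with sgSUGP1, against 2% and 2% with sgRenilla (limma adjusted p 0.014). The smallest called rises were in RIDA, an imine deaminase gene, and TPR, a protein of the nuclear basket. RIDA used its first site in 9%, 7%, 14% and 14% with sgSUGP1, against 1% and 1% with sgRenilla. TPR used a site 15 nt upstream in 9%, 10%, 7% and 10% with sgSUGP1, while both sgRenilla libraries were listed at 0%.

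The 4 called exons all rose. BRD9, a bromodomain protein of the non-canonical BAF chromatin remodelling complex, holds an exon known in SF3B1-mutant cells as a poison exon, which sends the transcript to decay. It was included (chromosome 5, upstream junction 869519 to 870588, minus strand) in 45% and 41% of transcripts with guide 3 and 27% and 32% with guide 4, against 5% and 4% with sgRenilla. The mean was 36.2% ± 8.2 (SD, n = 4) with sgSUGP1 and 4.5% ± 0.71 (n = 2) with sgRenilla (log2 change 3.32 ± 0.23 SE, limma adjusted p 0.014). Decay removes such transcripts, so the usage measured need not be the rate at which the exon is spliced in.

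COASY makes coenzyme A from its last precursors. One of its exons (chromosome 17, upstream junction 40714237 to 40714374) was included in 37%, 43%, 34% and 33% with sgSUGP1, against 8% and 8% with sgRenilla (log2 change 2.60 ± 0.23 SE, limma adjusted p 0.031). GUSBP11, a transcribed pseudogene of beta-glucuronidase, had 47%, 48%, 54% and 55% with sgSUGP1, against 20% to 27% with sgGPATCH8 and 16% and 17% with sgRenilla. It has near-identical copies in the genome, so its reads could belong to more than 1 locus. An exon on chromosome 15 with no matching gene (upstream junction 23311188 to 23311307) had 26%, 25%, 22% and 22% with sgSUGP1, against 6% and 4% with sgRenilla.

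Usage of the first site fell in 3 events. ENOX2, a cell surface oxidase gene on chromosome X (junction 129771384 to 129790555), used the upstream of 2 sites 6 nt apart in 35%, 26%, 38% and 36% of transcripts with sgSUGP1, against 84% and 82% with sgRenilla. The difference of −49.2 points had a log2 change of −3.19 ± 0.25 (SE, limma adjusted p 0.024). CRNDE, a long noncoding RNA, had 42%, 40%, 50% and 49% at the first of 3 sites with sgSUGP1, against 92% and 92% with sgRenilla (log2 change −3.64 ± 0.22 SE, limma adjusted p 0.014). BCAM, the laminin receptor that carries the Lutheran blood group, had 84%, 79%, 76% and 74% with sgSUGP1, against 98% and 99% with sgRenilla, at sites 63 nt apart. No sgSUGP1 library was above 38% in ENOX2 or above 50% in CRNDE, whereas BCAM stayed at 74% or more.

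Of the 17 called acceptor events, 14 had a pair of sites, at distances of 6 to 63 nt with a median of 15. In 9 of the 14 the distance was a multiple of 3, which would keep the reading frame where both sites lie in coding sequence. It was not in TMEM14C, DYNLL1, ZNF771, MINDY4 and MAP3K7. Of all tested pairs 10 to 30 nt apart 46.7% (563 of 1206) were multiples of 3. This range is narrower than that of the 14, so the shares are not of like sets. ENOX2 (6 nt), SKIC2 and BCAM (63 nt each) are multiples of 3 outside it.

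To see the spacing over more events than the test called, acceptor pairs were also counted in which all 4 sgSUGP1 libraries lay beyond all 6 other 293T libraries and the means with sgSUGP1 and sgRenilla differed by at least 10 points. This rule was chosen after values had been seen, and gives a description with no test. It took in 251 events above (0.512%) and 167 below (0.341%) among all 49031. Some of these events passed the filter on guide means only through their sgSUGP1 values. Of acceptor pairs 13 to 15 nt apart, 19 of 175 lay above (10.9%) and 1 below. The shares above were 6.62% at 10 to 12 nt (9 of 136), 5.85% at 16 to 18 nt (12 of 205) and 3.28% at 19 to 21 nt (8 of 244). At 22 to 24 nt 1 of 167 pairs lay above, and at 4 to 9 nt 1 of 755. At up to 3 nt, the class with most pairs, 16 of 6131 lay above and 15 below. Taken over 10 to 21 nt, 48 pairs lay above and 5 below of 760, against 41 above and 37 below of 10313 at other distances. An acceptor pair joined to several 5′ splice sites is counted once for each, as BCL2L1 is at 18 nt. The pairs counted here and below are thus not all separate observations.

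**Figure D2:**
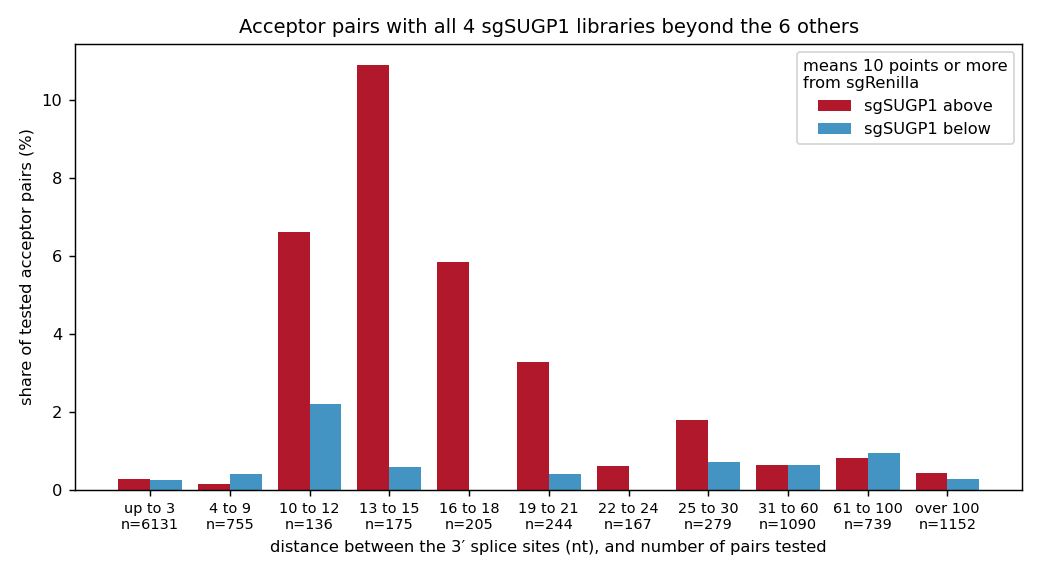
Share of tested acceptor pairs (percent, vertical axis) in which all 4 sgSUGP1 libraries lay above or below the 6 other 293T libraries with means at least 10 points from sgRenilla, by distance between the sites in nucleotides (horizontal axis, with the number of pairs tested). The bar for sgSUGP1 above reaches 10.9% at 13 to 15 nt and stays under 1% at up to 9 nt.

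Among the 54 pairs 10 to 30 nt apart that lay above, 38 had a distance that was a multiple of 3 (70.4%). The bases between the sites could be read for 45 of them and for 1019 of all tested pairs at these distances. C and T made up a median of 80.0% of this stretch, against 70.8% over all tested pairs. An AG inside the stretch stood in 5 of 45 (11.1%), against 21.6% of all tested pairs. The median distance was 15 nt in the 54 pairs and 20 nt over all 1206 tested. A longer stretch has more room for an AG, and these shares were not matched for length. Some of the pairs that lay above were among the largest changes that did not pass the test, below.

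By event type the same rule gave 109 above and 49 below of 11683 acceptor events, and 93 above and 54 below of 22711 skipped exons. Retained introns stood the other way, with 18 above, that is more spliced, and 39 below, less spliced, of 3831, although 0 retained introns were called. Tandem 3′ UTR events also had more below (8) than above (2), of 2083. Retained introns below the other libraries were seen in B3GAT1 and OXA1L. The intron of B3GAT1, a glucuronyltransferase gene, had a difference of −35.0 points, and that of OXA1L, which inserts proteins into the inner mitochondrial membrane, −23.0 points. Alternative 5′ splice sites gave 13 above and 6 below of 4805.

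The guides were compared directly. Set against sgRenilla singly, guide 3 gave 2 calls and guide 4 gave 8. Between guide 4 and guide 3 limma called 0 of 49031 events. The lowest adjusted p was 0.32, and 2890 events had an unadjusted p under 0.05. Among the 21 events the change was larger with guide 4 in 13 and with guide 3 in 8, and 3 had an unadjusted p under 0.05. TMEM14C was higher with guide 4 by 15.5 points (log2 difference 0.89 ± 0.29 SE, limma adjusted p 0.80) and RIDA by 6.0 points (limma adjusted p 0.84). The BRD9 exon was lower with guide 4 by 13.5 points, a log2 difference of −0.83 ± 0.26 (SE, limma adjusted p 0.79). A missed threshold with 2 libraries a guide does not show that the guides act alike, and guide and WT name cannot be told apart.

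**Figure D3:**
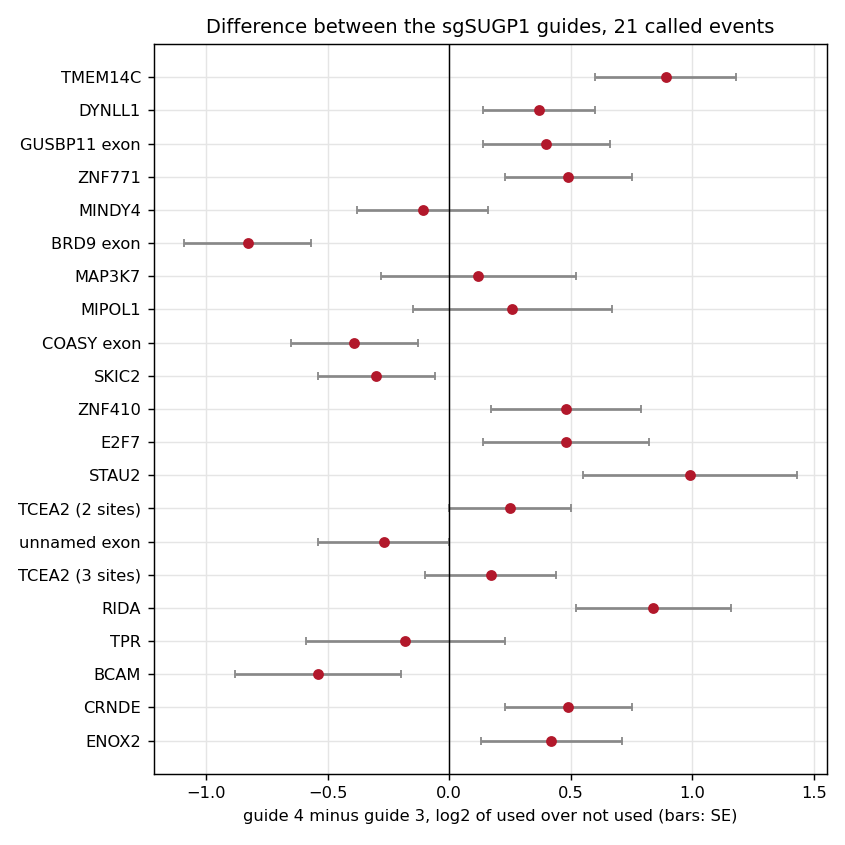
Difference between the guides, guide 4 minus guide 3, in the log2 of used over not used (horizontal axis, points with SE bars) for the 21 called events (rows). TMEM14C (0.89), STAU2 (0.99) and RIDA (0.84) lie furthest to the right and the BRD9 exon (−0.83) furthest to the left.

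Genes known as targets of mutant SF3B1 were followed as a list of 47, some of which were put on it because earlier results of these data showed them, so the list is not independent evidence of its direction. Of these, 46 had a tested event, 328 events in all. For 9 genes an event was called: 7 rose (TMEM14C, DYNLL1, BRD9, MAP3K7, COASY, SKIC2 and ZNF410) and 2 fell (ENOX2 and CRNDE). The median absolute difference over the 328 events was 3.75 points, against 2.50 over all tested events, and the median signed difference was 0 in both. In 25 of the 46 genes some event met the rule above for libraries that lay apart, against 315 of 10700 genes over all tested events. Genes differ in their number of events, and genes were partly listed for these results, so this is a description only.

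**Figure D4:**
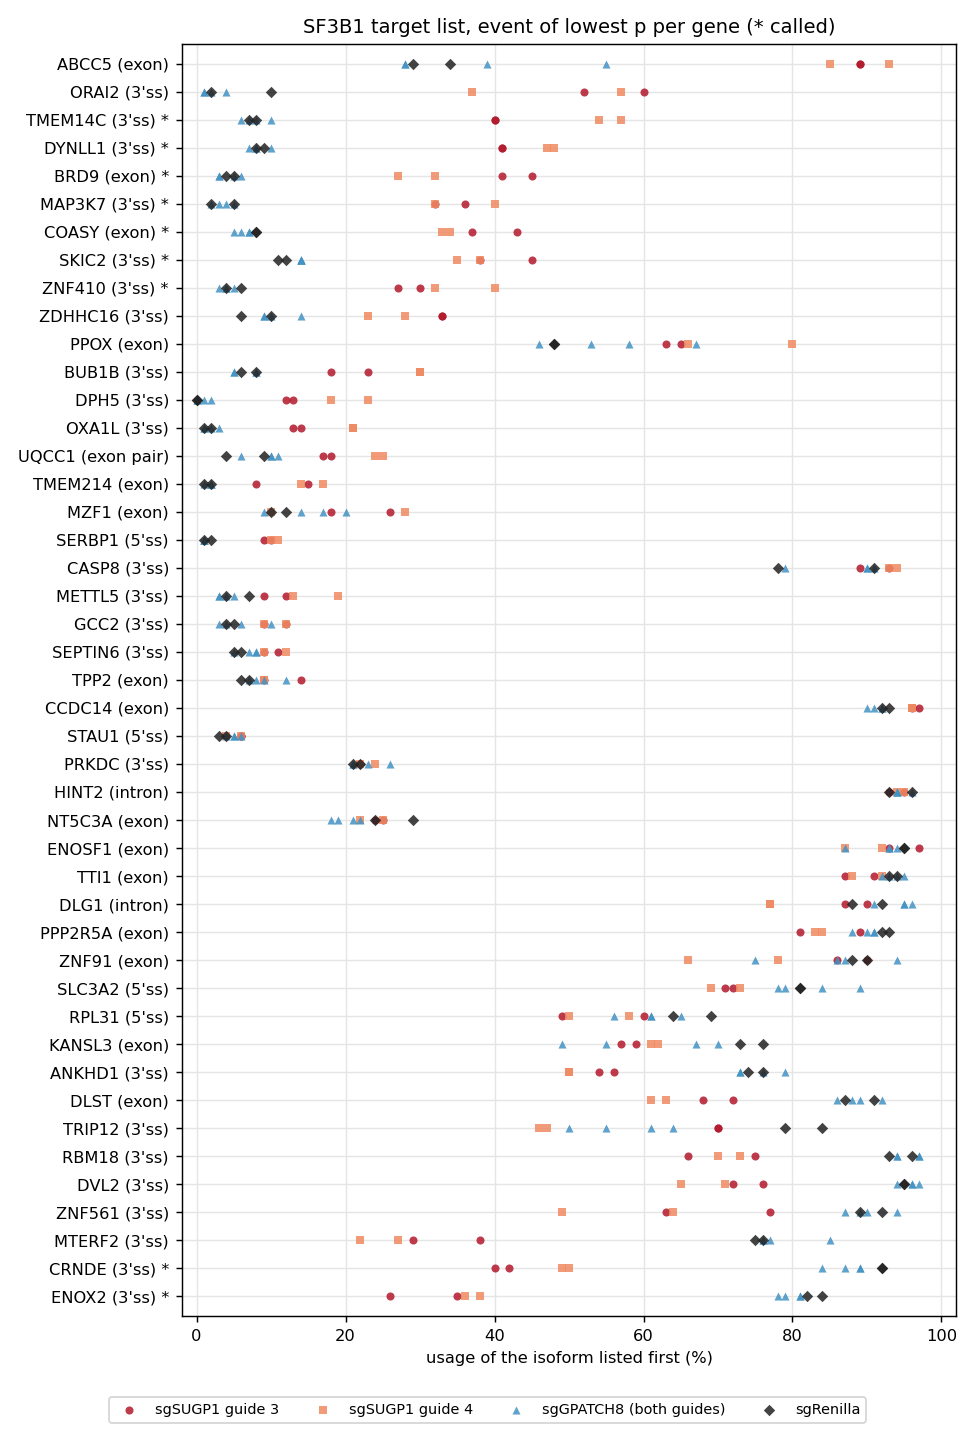
Usage of the isoform listed first (percent, horizontal axis) in each 293T library for the event of lowest p in 45 of the 46 listed genes (rows, by difference; asterisks mark called events). The sgSUGP1 symbols stand clear of the others in rows such as ABCC5, TMEM14C, DVL2 and ENOX2, and overlap them in rows such as PPOX, PRKDC and TRIP12.

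A further 8 genes of the list had an adjusted p between the threshold and 0.1, and did not pass. MTERF2, a mitochondrial transcription factor family member, used the upstream of a pair of sites 10 nt apart in 38%, 29%, 22% and 27% with sgSUGP1, against 75% and 76% with sgRenilla (limma adjusted p 0.054). BUB1B, the spindle checkpoint kinase BUBR1, had 18%, 23%, 30% and 30% with sgSUGP1, against 8% and 6% with sgRenilla, at a site 15 nt upstream (limma adjusted p 0.064). DPH5, an enzyme of diphthamide synthesis, had 12%, 13%, 18% and 23% with sgSUGP1, and both sgRenilla libraries were listed at 0% (limma adjusted p 0.064). In these 3 genes no sgSUGP1 library overlapped a sgRenilla library.
The Wnt pathway gene DVL2 had 72%, 76%, 65% and 71% with sgSUGP1, against 95% and 95% with sgRenilla, at sites 72 nt apart. An exon of ABCC5, an exporter of cyclic nucleotides, was included in 89%, 89%, 85% and 93% with sgSUGP1, against 34% and 29% with sgRenilla (limma adjusted p 0.083). It was the largest difference among the 46 events, 57.5 points, and the sgGPATCH8 libraries lay at 28% to 55%. The other 3 were SERBP1, RBM18 and OXA1L, with differences of 8.50, −23.5 and 15.8 points.

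Other listed genes did not come near the threshold. PPOX, the enzyme that oxidises the heme precursor carried by TMEM14C, included an exon in 63%, 65%, 66% and 80% with sgSUGP1, against 46% to 67% with sgGPATCH8 and 48% and 48% with sgRenilla (limma adjusted p 0.55). A PPOX acceptor event (161137024 to 161137129) lay apart, with 21%, 29%, 27% and 20% with sgSUGP1. It had 9% to 18% with sgGPATCH8 and 9% and 15% with sgRenilla (limma adjusted p 0.57). In WT K562 cells it had 49.0% and 40.0% with sgSUGP1, against 18.5% with sgRenilla. ORAI2, a calcium channel gene, differed by 45.5 points, with 52%, 60%, 57% and 37% against 2% and 10% with sgRenilla, yet had an adjusted p of 0.17 (limma). In TRIP12, a ubiquitin ligase gene, guide 3 gave 70% and 70% and guide 4 gave 46% and 47%, against 50% to 64% with sgGPATCH8 and 84% and 79% with sgRenilla.

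Some uncalled events also differed by many points. Those described here are from the 10 highest and 10 lowest among 912 uncalled events with an unadjusted p under 0.01 and sgSUGP1 values all on 1 side of the sgRenilla pair. In BRD9 the choice between 2 acceptors of the poison exon, 10 nt apart, was 96%, 98%, 96% and 97% with sgSUGP1 for the upstream site, against 64% and 13% with sgRenilla. The exon was included in only 4% to 5% of control transcripts, and the control pair spread widely (limma adjusted p 0.32). The same exon read with its downstream acceptor was included in 29%, 26%, 14% and 17% with sgSUGP1, against 3% and 5% with sgRenilla (limma adjusted p 0.057). These BRD9 events share junctions and are not separate observations.

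GSN encodes gelsolin, which severs actin filaments. It used a site 9 nt upstream in 85%, 76%, 88% and 78% with sgSUGP1, against 20% and 28% with sgRenilla (difference 57.8 points, limma adjusted p 0.064). MBD2, a reader of methylated DNA, used a site 24 nt upstream in 93%, 91%, 56% and 82% with sgSUGP1, against 16% and 30% with sgRenilla (limma adjusted p 0.17). GEN1, a nuclease that cuts Holliday junctions, had 77%, 46%, 69% and 77% at a site 17 nt upstream with sgSUGP1, against 18% and 17% with sgRenilla (limma adjusted p 0.27). BCL2L1, which encodes the survival protein BCL-XL, is outside these 20 and was chosen after its values were seen: a site 18 nt upstream had 66%, 77%, 75% and 63% with sgSUGP1, against 23% and 32% with sgRenilla (limma adjusted p 0.089). Joined to other 5′ splice sites, the same acceptor pair differed less. It had 66%, 75%, 60% and 52% against 34% and 33% (limma adjusted p 0.20), and 63%, 63%, 54% and 59% against 29% and 22% (limma adjusted p 0.21). In each of these genes the 4 sgSUGP1 libraries were above all 6 others. This was not so in ZBED3-AS1, PDLIM7 and BCO2, also among the 10 largest uncalled rises, where the sgGPATCH8 libraries lay at 55% to 91%, 39% to 83% and 51% to 78% and overlapped the sgSUGP1 ones. The bases at these acceptors are shown as above, for comparison with the called pairs.
BRD9 poison exon, 10 nt apart: tttctttcAGggcctg
GSN, 9 nt apart: ttcttgcAGatacag
MBD2, 24 nt apart: tttgtgtgcacttttctgctctAGctgcgc
GEN1, 17 nt apart: tgtgtttcacataacAGcagata
BCL2L1, 18 nt apart: ctgaAGctctttctctcccttcAGaatctt
MTERF2, 10 nt apart, used less: atgccattggcaAGtttattgcAGggaact
Before the closing AG, C and T made up all bases in BRD9 and BCL2L1, 85.7% in GSN, 77.3% in MBD2, 75% in MTERF2 and 60% in GEN1.

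Falls in the same pool differed in where the sgGPATCH8 libraries lay. RABL2A, a small GTPase gene, had 13%, 18%, 13% and 8% at an alternative 5′ splice site with sgSUGP1 and 3% to 30% with sgGPATCH8, against 92% and 34% with sgRenilla. An exon of the interleukin receptor gene IL12RB2 had 51%, 51%, 28% and 54% with sgSUGP1 and 31% to 67% with sgGPATCH8, against 98% and 84% with sgRenilla. In both the sgGPATCH8 libraries overlapped the sgSUGP1 ones and lay below the sgRenilla pair. Neither passed the test of sgSUGP1 against sgRenilla (limma adjusted p 0.50 for RABL2A and 0.39 for IL12RB2). In RABL2A the sgRenilla pair itself spread from 34% to 92%, with sgGPATCH8 up to 30%. The pool was picked by distance from 2 sgRenilla libraries, so a shared shift and unusual control values cannot be told apart. In TCF7L2, a Wnt-responsive transcription factor gene, a pair of sites 3 nt apart had 35%, 42%, 33% and 36% with sgSUGP1, against 72% to 91% with sgGPATCH8 and 77% and 80% with sgRenilla (limma adjusted p 0.24). Another TCF7L2 pair, 15 nt apart and outside this pool, rose instead. It had 58%, 61%, 56% and 45% with sgSUGP1, against 25% to 31% with sgGPATCH8 and 28% and 24% with sgRenilla (limma adjusted p 0.13).

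In the genes of the interaction itself no change passed the test. SUGP1 had 11 tested events, SF3B1 2 and GPATCH8 3, with 0 called by limma and a lowest adjusted p of 0.33. That one was an acceptor event of SUGP1 on chromosome 19 (junction start 19414852) with 8%, 7%, 7% and 5% with sgSUGP1, against 14% and 14% with sgRenilla. Usage within SUGP1 does not show its level. With 0.0428% of all tested events called, counts of 0 or 1 in lists of the sizes below say nothing about their members. Among lists of related factors, 0 of 70 events were called in 20 genes of the U2 snRNP and branch point recognition, 0 of 75 in 16 G-patch genes, 0 of 72 in 13 SR protein genes and 0 of 85 in 20 hnRNP genes. Their median absolute differences were 2.00, 2.25, 1.25 and 1.5 points, against 2.50 over all tested events. Lists for the exon junction complex, nonsense-mediated decay and the minor spliceosome gave 0 of 19, 0 of 35 and 0 of 23, with median absolute differences of 1.75, 3.00 and 1.75 points. The sgSUGP1 libraries lay above all 6 others in 1 of the 23 events of the minor spliceosome list, in CENATAC, against 0.512% of all tested events.

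Lists built round called genes, in which a call was therefore certain, gave that gene and no other. Heme and iron genes had 1 call in 92 events (TMEM14C), coenzyme A synthesis 1 in 21 (COASY), subunits of BAF complexes 1 in 142 (BRD9) and TAK1 and NF-kappaB signalling 1 in 103 (MAP3K7). Of the uncalled genes in these lists, only PPOX had an event that met the rule above for libraries that lay apart. The list of ATP-binding transporters, unlike these, held no called gene and had 0 calls in 90 events. By the rule above the sgSUGP1 libraries lay above the 6 others in 1 event each of ABCB6, ABCC4 and ABCC5. These are 3 of the 90 events, against 0.512% of all tested events, a count too small to describe the list. Their limma adjusted p-values were 0.65, 0.40 and 0.083, and ABCC5 is also on the SF3B1 target list.

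The difference from GPATCH8 loss was tested in the same fit. Limma called 333 of 49031 events between sgSUGP1 and sgGPATCH8 (0.679%), 228 higher and 105 lower with sgSUGP1. All 21 events above were among them (limma adjusted p 0.0021 to 0.015), but both comparisons use the same sgSUGP1 libraries and are not independent. With 4 sgGPATCH8 but only 2 sgRenilla libraries, the SE was smaller here, as in TMEM14C (0.21 against 0.25). The counts of 333 and 21 therefore do not compare the sizes of the differences. Left out singly, guide 3 replicate 1 and guide 4 replicate 1 gave 95 calls each, guide 3 replicate 2 gave 85 and guide 4 replicate 2 gave 87, and 17 or 18 of the 21 events were among them. In 128 of the 333 the sgSUGP1 libraries lay beyond all 6 others by the rule above.

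Among these were acceptors of FOXRED1, a gene of mitochondrial complex I assembly, with 97%, 98%, 98% and 98% with sgSUGP1, against 19% to 67% with sgGPATCH8 and 64% and 63% with sgRenilla. PGBD1 had 82%, 92%, 85% and 80% with sgSUGP1 at a site 20 nt upstream, against 22% to 42% with sgGPATCH8 and 51% and 34% with sgRenilla. In 141 of the 333 the mean with sgSUGP1 was within 5 points of that with sgRenilla, so that the sgGPATCH8 libraries stood apart. SLIT2, an axon guidance gene, had 75%, 72%, 74% and 73% of exon inclusion with sgSUGP1, against 15% to 31% with sgGPATCH8 and 73% and 79% with sgRenilla. The cytoskeletal linker gene DST had 86%, 88%, 88% and 80% with sgSUGP1, against 21% to 46% with sgGPATCH8 and 86% and 90% with sgRenilla. SIRT2, a deacetylase gene, went the other way, with 21%, 12%, 18% and 19% with sgSUGP1, against 48% to 66% with sgGPATCH8 and 16% and 27% with sgRenilla.

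The same events were then read in K562 libraries, which come from another table, with 1 library per guide and 1 sgRenilla library per genotype, so values stand side by side with no test. Of the 21 events, 20 differed in the same direction in WT K562 cells with sgSUGP1, and in 17 of the 21 the difference was larger there. TMEM14C had 51.5% with guide 3 and 66.5% with guide 4, against 5.0% with sgRenilla. The BRD9 exon had 71.0% and 58.5%, against 7.0%, so guide 3 was the higher one for BRD9 and guide 4 for TMEM14C in both lines. MAP3K7 had 49.5% and 62.5%, against 9.5%, and DYNLL1 53.0% and 64.0%, against 9.0%.
ENOX2 had 18.5% and 22.5% with sgSUGP1 in K562, against 85.5% with sgRenilla, and CRNDE 17% and 28.0%, against 74.5%. BCAM was the event that differed: 86.5% and 72.5% with sgSUGP1 lay on either side of the 73.5% with sgRenilla. K562 cells with SF3B1 K700E and sgRenilla had 58.5% for TMEM14C, 48.5% for DYNLL1, 51.5% for the BRD9 exon and 63.0% for MAP3K7. E2F7 had 15.5% in the K700E library, against 23% to 35% in 293T and 24% and 33.5% in WT K562 with sgSUGP1.

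**Figure D5:**
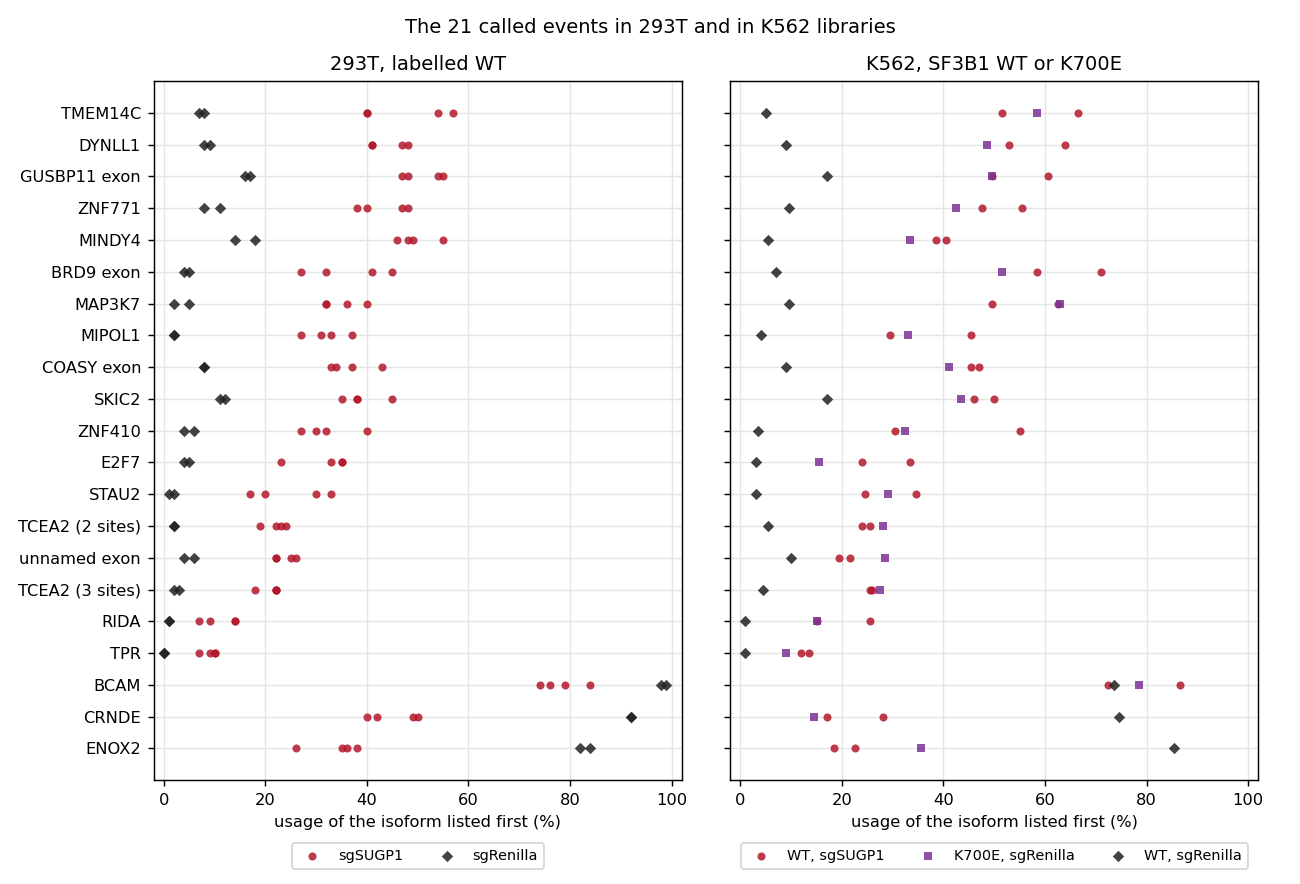
Usage of the isoform listed first (percent, horizontal axes) of the 21 called events (rows), at left in the 293T sgSUGP1 and sgRenilla libraries and at right in K562 libraries with sgSUGP1 in WT cells, with sgRenilla in K700E cells and with sgRenilla in WT cells. In both panels the sgSUGP1 symbols lie to the right of sgRenilla in the rows from TMEM14C to TPR and to the left in CRNDE and ENOX2, while BCAM differs between the panels.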

How the data were processed

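Per the labels' protocols, libraries were strand-specific and made from polyadenylated RNA. The authors deposited, per event, the fraction of the isoform listed first (0 to 1, 2 decimals). TopHat2 2.0.8b, TopHat, Bowtie and RSEM 1.2.4 and build hg19 (GRCh37) were used, per the submitters' processing notes. The role of each, and how fractions were made, is not given in the sources used here. No file gives read counts, so no counting interval could be computed. Events were named where chromosome, strand and junction length matched GENCODE 29 (101092 of 110816 events, 91.2%), with no coordinate converted, and 2 rows without coordinates were left out.

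Events with a value in all 10 293T libraries, some guide mean of at least 5% and some of at most 95% were tested. An event could thus pass through its sgSUGP1 means alone. Each fraction f was turned into log2((f + 0.01)/(1 − f + 0.01)), the log2 of used over not used, and fitted with limma 3.58.1 (R 4.3.3): 1 mean per guide, 5 residual degrees of freedom, trended prior variance, Benjamini-Hochberg adjustment over all tested events. Differences are in percentage points of group means. The fit was tested on simulated data. Fractions of K562 runs were averaged per library. Named were all called events, the 10 largest uncalled rises and falls among those described in the report, the lowest-p event of each listed target gene, the events of SUGP1, SF3B1 and GPATCH8, and the 10 largest differences each way from sgGPATCH8, of which examples are given. Members and lists were chosen with earlier results of these data known. Sequences were read from GENCODE 29 transcripts. Of 8790 acceptor extensions read, 99.8% ended in AG. Those of MAP3K7, MINDY4 and TPR were not used here. The bases of the called pairs in STAU2, SKIC2 and BCAM are not shown either. A few listed or marker genes are not reported here by name.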

Additional observations from a re-analysis of the deposited data

Results flagged for a closer look

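In 7 of 74 events examined, the gap between 1 sgSUGP1 library and the other 3 took up most of the range of the 4. For continuous values chance alone gives this in about 1 of 20 groups. That rate does not hold here, since values are whole percents, and in 6 of the 7 the other 3 libraries were tied. In E2F7 guide 3 replicate 1 had 23%, against 33% to 35% in the others, and in the TCEA2 event with 3 sites guide 3 replicate 2 had 18%, against 22%. Both stayed far above their sgRenilla libraries. The other 5 were uncalled, with gaps of 1 to 5 points: CCDC14 (97%), TPP2 (14%), STAU1 (4%), PRKDC (24%) and an exon of GPATCH8 (92%).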

How the results depend on the processing

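The count of 21 called events was 39 with an offset of 0.05, 13 with 0.005, 42 on untransformed points, 33 with the arcsine square root, 84 without the filter on group means and 44 with 1 mean for the 4 sgSUGP1 libraries. It was 2 with guide 3 alone, 8 with guide 4 alone, 0 without the sgGPATCH8 libraries and 0 to 0 with any of the 6 libraries left out. The replicate block gave 0 (adjusted p 0.081 to 0.13 for the 21), but replicate numbers did not pair libraries (correlations of −0.025 to 0.012). It stayed at 16 to 21 with a missing value allowed (18), without a trend, without tandem UTR events and at 10 points (20). None of the 21 events changed sign in the 20 alternatives. Between the guides all 6 alternatives gave 0. Against sgGPATCH8 the count of 333 was 182 with the replicate block, 85 to 95 with an sgSUGP1 library left out and 359 with an offset of 0.05.

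Some uncalled events turned sign. With guide 3 alone SF3B1 was at 3.00 points, and with guide 4 alone SUGP1 exon 19413252 was at −6.00 points. With 1 library left out, HINT2 ranged from −1.75 to 1.25 points, GPATCH8 exon 42544482 from −0.50 to 3.50, SF3B1 from −20.5 to 5.50, and in SUGP1 the 5′ splice site at 19413197 from −3.50 to 2.50 and exons 19413252 and 19427402 from −0.25 to 3.75 and from −0.25 to 20.75. The cause was not tested. The unknown depth limits every value, and 2 control libraries limit the tests.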
